A study of Mus musculus with 2 samples.

Results

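The 9 symbols described here name structured non-coding RNAs of the cell that are not ribosomal, transfer or spliceosomal RNA: Rn7s1 and Rn7s2 (7SL RNA), Rn7sk (7SK RNA), Rpph1 (ribonuclease P), Rmrp (ribonuclease MRP), Terc (telomerase), Vaultrc5 (vault RNA), and the Y RNAs Rny1 and Rny3. They were taken as a list of names, and no measured value entered the rule. Earlier results of these data were known when the list was chosen. The symbol Rmrp stands on 2 gene IDs, so the 9 symbols gave 10 of the 55536 annotated gene IDs, each with 1 transcript. The RNA came from gastrocnemius, a calf muscle with mostly fast fibres, of female B6CASTF1/J mice aged 14 days, the first-generation hybrid of C57BL/6J and CAST/EiJ. There was 1 group of 2 libraries, each made from 300 ng of total RNA with ERCC spike-ins, and no treatment, genotype, age or tissue to compare it with. The labels call the libraries biological replicates 1 and 2 and give both the same donor identifier. One label names 3 females for both, another only for replicate 1, so the spread between the libraries may be technical. Whole muscle also holds vessel, nerve, connective tissue and blood cells, and in such a sample fewer cells of a type and less RNA per cell cannot be told apart.

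Each of these RNAs works as part of a particle with proteins. 7SL RNA is the scaffold of the signal recognition particle, which binds ribosomes making secreted or membrane proteins and brings them to the endoplasmic reticulum. 7SK RNA holds the kinase P-TEFb inactive with HEXIM proteins and so limits the release of paused RNA polymerase II, a step studied in growth of heart muscle. Ribonuclease P trims the 5′ ends of transfer RNAs, and ribonuclease MRP, which shares most of its proteins, cuts precursor ribosomal RNA. Terc carries the template for telomere repeats, vault RNA sits in the large vault particle, and Y RNAs bind the Ro and La proteins. All but Terc are made by RNA polymerase III.

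The sequences below, from the GENCODE M21 transcripts on mm10 (first base counted as 1), are those that decide which reads can be told apart or that carry a known functional stretch. Rmrp-202 (chr4:43492783-43493063, minus strand) is shown with capitals for the bases that Rmrp-201 (chr4:43492788-43493058, minus strand) lacks. The first 300 of the 319 bases of Rpph1 (chr14:50807449-50807767, minus strand) have capitals where 31-base windows also occur in a transcript of the coding gene Ccnb1ip1. The first 110 bases of Rn7sk (chr9:78175303-78175633, minus strand), its 5′ hairpin region, have capitals for the motif GATC, which in RNA is the repeat that HEXIM proteins recognise. The first 60 bases of Terc (chr3:96414437-96414859, minus strand) have capitals for CTAACCC, the template of the telomere repeat. Rny1 (chr6:47788069-47788180, minus strand) and Rny3 (chr6:47781624-47781725, plus strand) are whole, with capitals for the closing run of T at which RNA polymerase III stops.
Rn7sk: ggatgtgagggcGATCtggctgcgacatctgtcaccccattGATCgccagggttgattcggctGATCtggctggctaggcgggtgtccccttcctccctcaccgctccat
Rpph1: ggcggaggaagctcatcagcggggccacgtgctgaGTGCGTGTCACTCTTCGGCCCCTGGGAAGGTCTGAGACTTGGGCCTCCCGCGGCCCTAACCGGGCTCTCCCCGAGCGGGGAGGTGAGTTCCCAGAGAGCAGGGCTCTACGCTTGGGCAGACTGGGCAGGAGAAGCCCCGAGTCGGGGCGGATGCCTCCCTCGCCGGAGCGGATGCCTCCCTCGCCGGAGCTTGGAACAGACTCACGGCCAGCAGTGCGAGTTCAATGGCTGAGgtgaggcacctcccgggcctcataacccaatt
Rmrp-202: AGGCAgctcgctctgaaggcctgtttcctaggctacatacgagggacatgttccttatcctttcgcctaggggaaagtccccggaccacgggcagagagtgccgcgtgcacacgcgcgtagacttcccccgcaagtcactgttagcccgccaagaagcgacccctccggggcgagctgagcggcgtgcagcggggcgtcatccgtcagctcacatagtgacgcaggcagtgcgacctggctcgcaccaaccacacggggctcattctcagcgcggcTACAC
Terc: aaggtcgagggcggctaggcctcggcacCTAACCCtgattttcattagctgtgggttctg
Rny1: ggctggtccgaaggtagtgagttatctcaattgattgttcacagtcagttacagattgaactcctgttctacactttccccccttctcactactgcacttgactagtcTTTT
Rny3: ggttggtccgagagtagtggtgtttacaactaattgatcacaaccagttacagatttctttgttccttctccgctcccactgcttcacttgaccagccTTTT

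The motifs GATC and CTAACCC were searched on both strands and the closing TTTT on the transcript strand, and none overlapped another. At least 3 copies of GATC stood in the first 110 bases of Rn7sk and of 0.427% of the 138029 annotated transcripts of that length or more, while 25.5% held at least 1. The first 60 bases of 0.350% of 141515 transcripts held CTAACCC. Of the 19337 transcripts with 102 to 423 bases, 2.78% closed with TTTT. Rny1 and Rny3 aligned with 71.4% identity, 80 identical positions over 112 alignment columns.

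The name structured RNA was checked against predicted folding. The minimum free energy given by RNAfold had a median of -39.0 kcal/mol per 100 bases over the 10 transcripts and -29.1 over 19327 other annotated transcripts with 102 to 423 bases. Terc, Rpph1 and 7SL folded most stably, at -47.8, -47.0 and -44.3 kcal/mol per 100 bases. Fewer than 1 in 100 of the transcripts were lower than Terc (0.672%) or Rpph1 (0.848%), and 1.87% were lower than 7SL. Rmrp-201 stood at -39.2, Rmrp-202 at -38.7, the vault RNA at -37.9 and Rn7sk at -33.8 kcal/mol per 100 bases. In this order, 7.54%, 8.52%, 10.2% and 23.7% of transcripts were lower. The Y RNAs did not stand apart, with -30.6 for Rny1 and -26.6 for Rny3, where 40.6% and 66.1% of transcripts were lower. GC content moved with the energy, with a median of 62.3% in the 10 transcripts and 49.5% in the others, and its part in the difference was not tested.

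The gene tables held 35592003 and 42105856 counts of annotated genes in replicates 1 and 2. Among the listed marker genes, those of skeletal muscle were highest, with Acta1 at 28140 and 30304 TPM. TPM corrects counts for effective length and scales them to a fixed sum over all genes. The liver gene Alb had 43 and 3 counts and the heart gene Nppa 0 in both. Krt10, also listed as a marker of tissue outside the sample, had 39 and 48 counts, at 2.67 and 2.79 TPM. Of the listed markers of other cells, Mbp (myelin) differed by a log2 ratio of 1.30, Col1a1 (fibroblasts) by 0.63 and Hbb-bs (red cells) by -1.15 between replicate 2 and replicate 1, and Pecam1, Rgs5 and Csf1r by -0.20, -0.20 and 0.11. What these shifts contribute to the values of the structured RNAs was not tested.

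In the gene tables the 10 IDs held 28.5% of the TPM of all genes in replicate 1 and 28.1% in replicate 2 (28.3% ± 0.261, mean ± SD, n = 2). Of the counts they held 4.50% and 4.34% (4.42% ± 0.109). The share of TPM is thus several times the share of counts. TPM divides by effective length, the number of positions where a read of 100 bases can start, and this is 201 for 7SL and 3 for Rny3. With full length in its place the share was 22.9%. Without 7SL, the remaining RNAs held 2.37% and 2.72% of TPM.

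7SL RNA had 727726 counts in replicate 1 and 818190 in replicate 2 on each of Rn7s1 and Rn7s2, at 128699 and 125205 TPM each, the top level of all genes. The deposited 7SL values were split evenly, and all 300 bases of the transcripts, and so all 201 windows of 100 bases, are identical, so only the sum is a measurement. That sum was 257397 and 250411 TPM (253904 ± 4940.1, n = 2). By CPM, which scales counts to a fixed sum without length correction, the 2 entries shared rank 7. That rank is of each entry after the split, not of 7SL as a whole. Summed, 7SL had 1455453 and 1636380 counts, above Acta1 with 1060772 and 1320087.

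Rn7sk had 101623 and 134886 counts and 15571 and 17883 TPM (16727 ± 1635, n = 2). Replicate 2 was the higher, and the deposited intervals, 15112 to 15298 and 17425 to 17611 TPM, did not overlap. Each describes a single library, so this does not measure the spread between libraries. The intervals lie around the posterior means of 15206 and 17517 TPM and do not hold the TPM values above. Rn7sk ranked 7 among all genes by TPM and 42 by CPM. Of its 232 windows of 100 bases, 142 also occurred in 3 other genes, yet the deposited posterior SD of its count was only 1.88 and 3.00 counts.

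Rpph1, the RNA of ribonuclease P, had 27498 and 34191 counts and 4443 and 4780 TPM (4612 ± 238, n = 2), rank 26 by TPM. The stretch it shares with Ccnb1ip1 runs from base 36 to base 268, and 134 of its 220 windows of 100 bases lie in that gene too. Ccnb1ip1 overlaps Rpph1 on the same strand and was given only 1.29 and 3.88 counts. The posterior SD of the Rpph1 count was 6.06 and 6.62 counts.

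Rmrp, the RNA of ribonuclease MRP, was divided between its 2 entries. Rmrp-201, a ribozyme entry of 271 bases, had 9939 and 15784 counts and 2054 and 2823 TPM. Rmrp-202, a lincRNA entry of 281 bases, had 6619 and 7996 counts and 1293 and 1351 TPM. All 172 windows of Rmrp-201 lie inside Rmrp-202, which has 10 of its own, and the posterior SD was 2.46% to 5.16% of the count. The division is therefore uncertain, and the summed value of 16558 and 23780 counts, or 3347 and 4174 TPM, is the better measurement. Summed, it was lower than Rpph1 in both libraries.

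Terc, the telomerase RNA, was near the limit of detection, with 6 and 8 counts. Poisson intervals at 95% were 2.20 to 13.1 and 3.45 to 15.8 counts, and cover counting error only. It stood at 0.66 and 0.76 TPM, rank 13206. None of its 324 windows of 100 bases occurred in another gene.

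The vault RNA had 37 and 38 counts, with Poisson intervals of 26.1 to 51.0 and 26.9 to 52.2. At 29.9 and 26.6 TPM (28.2 ± 2.35, n = 2) it ranked 2136 by TPM but 13016 by CPM, since only 44 windows of its 143 bases can hold a read and 1 read was worth 0.808 and 0.699 TPM.

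The Y RNAs were at or below the limit of these tables. Rny1 had 1 and 2 counts and was listed at 2.73 and 4.73 TPM, with 1 read worth 2.73 and 2.37 TPM. Rny3 had 0 counts in both libraries, and the Poisson interval used above allows up to 3.69. At 3 counts, the floor used below, it would stand at 35.5 and 30.8 TPM. The deposited posterior mean of Rny3 was nevertheless 11.6 and 10.04 TPM, near the 11.8 and 10.3 TPM that 1 read is worth for it. A level of the Y RNAs was not detectable at this depth and read length.

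By TPM the order in both libraries was 7SL, Rn7sk, Rpph1, Rmrp-201, Rmrp-202, vault RNA, Rny1, Terc and Rny3. The deposited intervals of neighbours in this order did not overlap in either library from 7SL down to Rny1. Those of Rny1 and Terc overlapped, at 0.132 to 12.6 and 0.248 to 1.31 TPM in replicate 1, and that of Rny3 held both and overlapped that of the vault RNA. With full length, as with CPM, Terc came before Rny1.

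**Figure D1:**
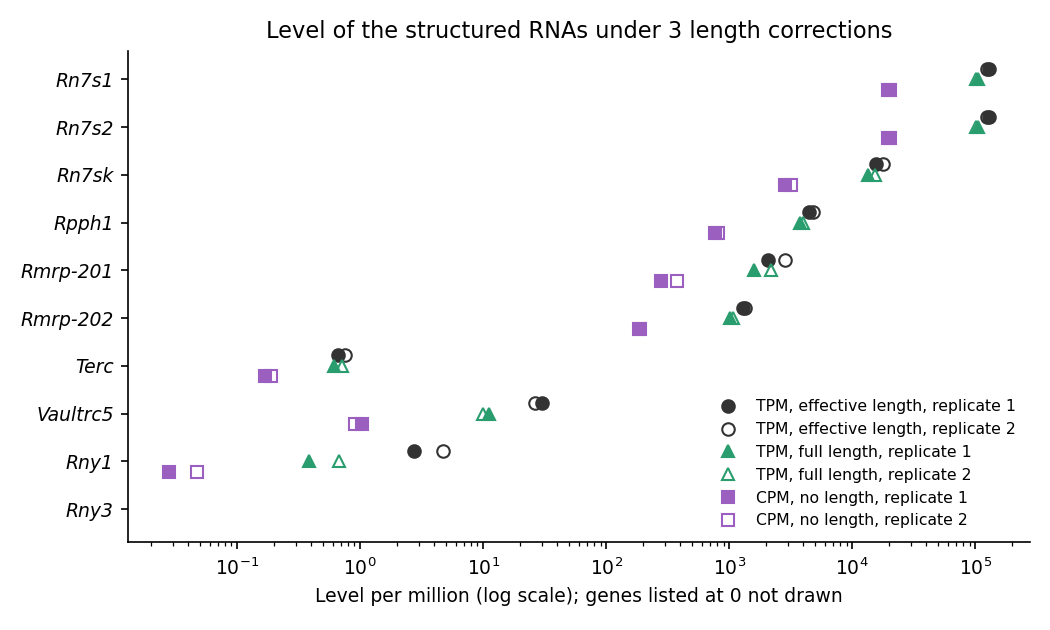
Level of each structured RNA (one row each) in both libraries as TPM with effective length, TPM with full length and CPM without length correction, on a log axis. The upper 6 rows keep their order under all 3 measures, while Terc and Rny1 change places, and Rny3, listed at 0, is not drawn.

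A second deposited quantification, made directly from the same reads, gave a different account of these RNAs. It left 2 and 3 counts in all for 7SL, 3 and 1 for Rpph1, and 0 in both libraries for Rn7sk, both Rmrp entries, the vault RNA and both Y RNAs. Terc alone kept most of its reads, with 5 and 7 counts against 6 and 8. The 10 IDs together fell from 1601177 and 1829286 counts to 10 and 11. Against a floor of 3 counts per library, Rn7sk was at least 33875-fold and 44962-fold lower and the vault RNA at least 12.3-fold and 12.7-fold lower.

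All 7 of the IDs with at least 20 counts in both libraries were at least 10-fold lower in the direct quantification in both. Across all genes with such counts, 2.01% (277 of 13773) were. This background depended on length. Every gene whose longest transcript has 201 to 300 bases was lower (100%, 48 of 48, 4 of them members), as were all 55 genes up to 200 bases. From 301 to 400 bases 71.8% were lower (51 of 71, 2 of them members). The share was 41.5% from 401 to 500 bases, 7.74% from 501 to 1000 and 0.226% above. Within their own length classes the members did not stand apart from this background, and the cause of the loss was not tested.

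Effective lengths in the direct quantification were 68.7 and 66.0 bases for 7SL and 120 and 117 for Terc. For transcripts over 1000 bases, length exceeded effective length by a median of 341 bases there and by 99 in the gene tables. Terc has 423 bases, the longest of the members. Of the 43 tested genes with 401 to 450 bases, 22 were at least 10-fold lower (51.2%), and the median gene kept 1.40% of its counts. Terc kept 83.3% and 87.5%, on counts below the threshold for testing.

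**Figure D2:**
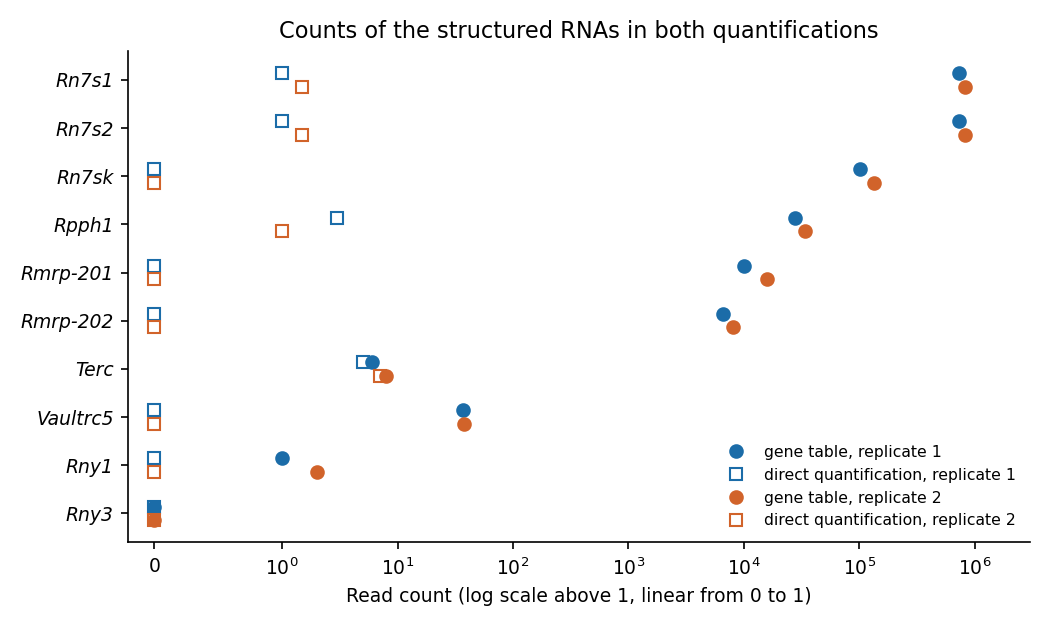
Counts of each structured RNA in the gene tables (filled circles) and in the direct quantification (open squares) in both libraries, on an axis that is linear from 0 to 1 and logarithmic above. The squares lie at 0 to 3 counts except for Terc, where circle and square nearly coincide.

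**Figure D3:**
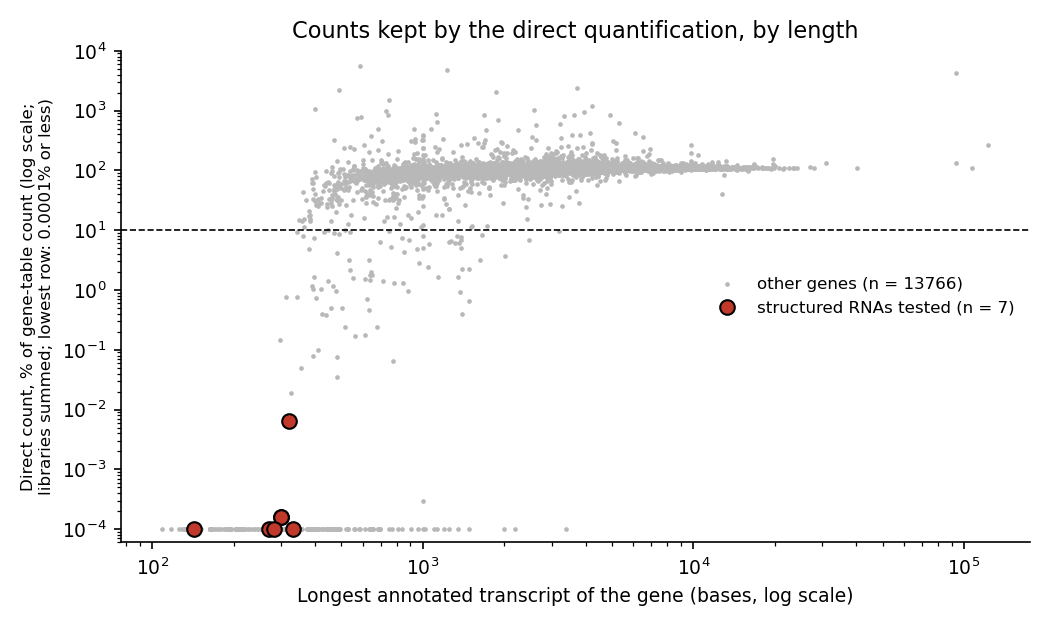
Direct count as a percentage of the gene-table count, both libraries summed, against the longest transcript of each gene with at least 20 counts in both libraries, both axes logarithmic. The 7 tested IDs of 5 structured RNAs (red) lie among the short genes at the bottom left, and genes over 1000 bases lie near 100%.

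The members held 97.2% of the gene-table counts of all tested genes with 201 to 300 bases in both libraries, and 73.9% and 76.2% from 301 to 400 bases. Up to 200 bases, where the vault RNA belongs, the member share was only 0.105% and 0.0967%. Total counts hardly differed, at 35168525 and 41543692 in the direct quantification, while the scale of other genes' TPM did. Among 10881 other genes over 1000 bases with at least 1 TPM, direct TPM was a median of 1.34 and 1.33 times gene-table TPM. When the 10 IDs were left out of the gene-table sum, which multiplies all other TPM by 1.40 and 1.39, these medians became 0.961 and 0.957. Direct counts of these genes were a median of 1.07 and 1.06 times the gene-table counts. What set the difference in scale was not tested.

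By the measure of likeness used here, the ratio of direct to gene-table counts, 229 genes (1.66%) were at least 100-fold lower in both libraries, a direct count of 0 being taken as passing. The 7 tested members are among them, but for the vault RNA the floor of 3 counts bounds the difference only at 12.3-fold and 12.7-fold. The highest others by TPM were Gm10925, an unprocessed pseudogene, at 10437 and 9468 TPM, mt-Atp8 at 3669 and 3560 and mt-Nd4l at 3332 and 3236, both mitochondrial coding genes. Next came the snRNA entries Gm23444 and Gm23472, each at 1440 and 1114 TPM, and the miRNA entry Gm47302 at 1000.2 and 1421 TPM. The pseudogene Gm12338 and the snRNA entries Gm23971, Gm24950 and Gm23849 completed the top 10. Of the 229 genes, 119 were processed pseudogenes, 33 snoRNA, 24 snRNA and 22 protein-coding genes.

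Between the libraries, none of the 7 testable IDs was past 1.5-fold in either direction, against 13.5% of all genes with a summed count of at least 20 (2124 of 15734). Among the 725 genes with a summed count of at least 10000, a depth that 6 of the 7 share, 8.14% were past it. Terc, Rny1 and Rny3 had too few counts. Log2 ratios of TMM-scaled counts, replicate 2 over replicate 1, follow with 95% exact binomial intervals for counting error. With 1 library on each side no test across animals exists. Scaling by total counts or by spike-ins moved the median of all genes from 0.01 to 0.14 or 0.23, so values are also given relative to that median.

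7SL stood at -0.20 (-0.21 to -0.20), or -0.21 relative to the median gene, and at 0.02 with spike-in scaling, where its sign turned. Rn7sk stood at 0.04 (0.03 to 0.05) and from 0.03 to 0.26 over the scalings. Rpph1 stood at -0.06 (-0.08 to -0.03), and at 0.07 and 0.16 with total counts and spike-ins, so its sign turned as well. These 3 RNAs were thus within 0.21 of the median gene. Changing the scaling shifts all genes by the same amount, so the turns in sign carry nothing particular to these RNAs.

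The 2 entries of Rmrp gave different ratios. Their intervals cover counting error only and leave out the uncertain division of reads between them. The posterior SD of that division was 341 and 389 counts in replicates 1 and 2, so the difference between the entries is not a firm measurement. Rmrp-201 stood at 0.30 (0.26 to 0.33), and from 0.29 to 0.52 over the scalings. Rmrp-202 stood at -0.10 (-0.14 to -0.05), but at 0.03 and 0.12 with total counts and spike-ins. Summed over both, the ratio was 0.15 (0.12 to 0.18), or 0.14 relative to the median gene. It stayed above 0 in all scalings, up to 0.37 with spike-ins, a rise that all genes share. The vault RNA stood at -0.33 with an interval of -1.02 to 0.36, so no difference was detectable at its depth.

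**Figure D4:**
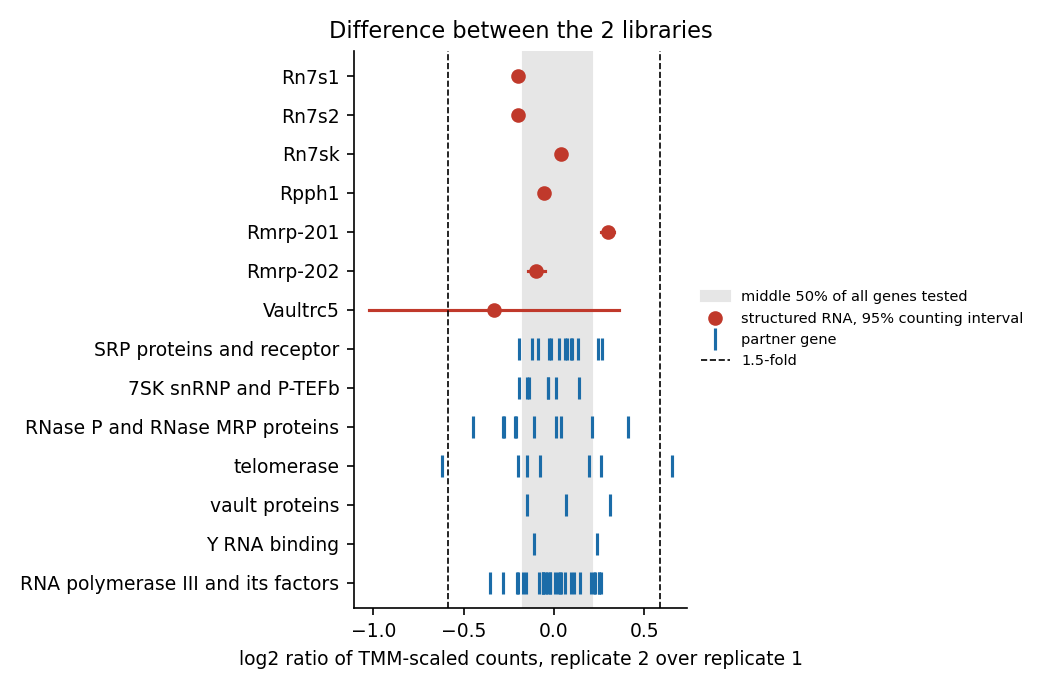
Log2 ratio of TMM-scaled counts, replicate 2 over replicate 1, for the 7 tested IDs of 5 structured RNAs (red). Red lines are 95% counting intervals, and blue ticks are the partner genes by list. The middle 50% of all genes is shaded and 1.5-fold is dashed. All red points lie between the dashed lines, and 2 telomerase partners lie outside them.

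The RNAs were set beside genes for the proteins of their particles and of RNA polymerase III, 73 symbols in 7 lists, of which 71 were annotated. Of these, 66 reached 1 TPM in both libraries and none was at least 10-fold lower in the direct quantification. Past 1.5-fold between the libraries were 2 of the 70 with enough counts, 1 in each direction. Their median log2 ratio was -0.02, beside -0.10 over the 7 tested IDs and 0.01 over all genes. With 7SL and Rmrp each entered once as their sums, the median over the 5 tested RNAs was -0.06.

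Of the signal recognition particle, its receptor and the translocon it docks to, 12 of 13 genes reached 1 TPM. The highest were Srpr, the receptor subunit that binds the particle, at 83.7 ± 2.76 TPM, Srp14, part of the pair that slows translation, at 62.4 ± 1.22, and Srp68 at 32.6 ± 1.90 (n = 2 for all). None was past 1.5-fold, and the median log2 ratio was 0.06. 7SL had 3006 and 3065 times the TPM of Srpr, and 245 and 244 times its CPM. In the direct quantification it lay below Srpr, at 1.15 and 1.55 TPM against 109 and 108.

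All 7 genes of the 7SK particle and P-TEFb reached 1 TPM. Cdk9, the kinase of P-TEFb, stood at 10.9 ± 1.05 TPM, its inhibitor Hexim1 at 10.4 ± 0.127 and Mepce, which caps 7SK RNA, at 9.65 ± 0.912. None was past 1.5-fold, with a median log2 ratio of -0.04, and Rn7sk had 1536 and 1538 times the TPM of Cdk9, or 216 and 227 times its CPM. In the direct quantification Rn7sk was at 0 and Cdk9 at 11.9 and 14.02 TPM.

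Of the proteins of ribonucleases P and MRP, 9 of 11 reached 1 TPM in both libraries. Rpp25l was highest at 21.8 ± 3.05 TPM, then Pop5 at 11.7 ± 1.01 and Rpp21 at 11.3 ± 0.410, while Rpp25, the paralog of Rpp25l, was listed at 0. The median log2 ratio was -0.16 and none was past 1.5-fold, though Pop1, at 0.41, reached 0.63 with spike-in scaling. Rpph1 had 186 and 244 times the TPM of Rpp25l, and summed Rmrp 140 and 213 times. By CPM these ratios were 53.9 and 70.8 for Rpph1 and 32.5 and 49.2 for Rmrp. The direct quantification put both below Rpp25l, with Rpph1 at 1.60 and 0.477, Rmrp at 0 and Rpp25l at 34.03 and 27.1 TPM.

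In the telomerase list 6 of 7 genes reached 1 TPM, but Tert, the reverse transcriptase that copies the template of Terc, did not. It had 12 and 10 counts, at 0.11 and 0.07 TPM. Its log2 ratio of -0.62 was past 1.5-fold, but the interval ran from -2.00 to 0.70, and the ratio was -0.01 with direct counts. Nop10, Nhp2 and Dkc1, which bind many box H/ACA RNAs besides Terc, stood at 27.3 ± 1.13, 13.9 ± 2.87 and 13.2 ± 2.80 TPM. Gar1, the remaining protein of that core, had 99 and 202 counts and was higher in replicate 2 by a log2 ratio of 0.65 (0.30 to 1.02), at 6.16 and 13.0 TPM. Terc was below these proteins, at 0.0249 and 0.0270 times the TPM of Nop10, and at 0.0803 and 0.0912 times in the direct quantification.

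The vault proteins were all detected, with Mvp, the shell protein, at 8.91 and 13.2 TPM, the vault poly(ADP-ribose) polymerase Parp4 at 4.81 ± 0.460 and Tep1 at 3.86 ± 0.990. The vault RNA had 3.35 and 2.01 times the TPM of Mvp, but this turned with the measure. With full length the ratio was 1.07 and 0.642, by CPM 0.0535 and 0.0342, and the direct quantification gave the vault RNA 0. Of the Y RNA binding proteins, Ssb (the La protein) stood at 29.2 and 38.3 TPM and Trove2 (the Ro protein) at 1.81 and 1.86. None of these 5 genes was past 1.5-fold.

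Of RNA polymerase III and its factors, 27 of 28 genes reached 1 TPM in both libraries. Maf1, the repressor of this polymerase, was highest at 32.1 ± 3.22 TPM, followed by Gtf3c1, the largest subunit of factor IIIC, at 15.1 ± 0.594 and the polymerase subunit Polr3gl at 14.8 in both libraries. The exception was Polr3g, the alternative to Polr3gl, with 32 and 46 counts at 0.54 and 0.62 TPM. The median log2 ratio was -0.01, none was past 1.5-fold, and Maf1 stood at -0.35 (-0.46 to -0.24).

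**Figure D5:**
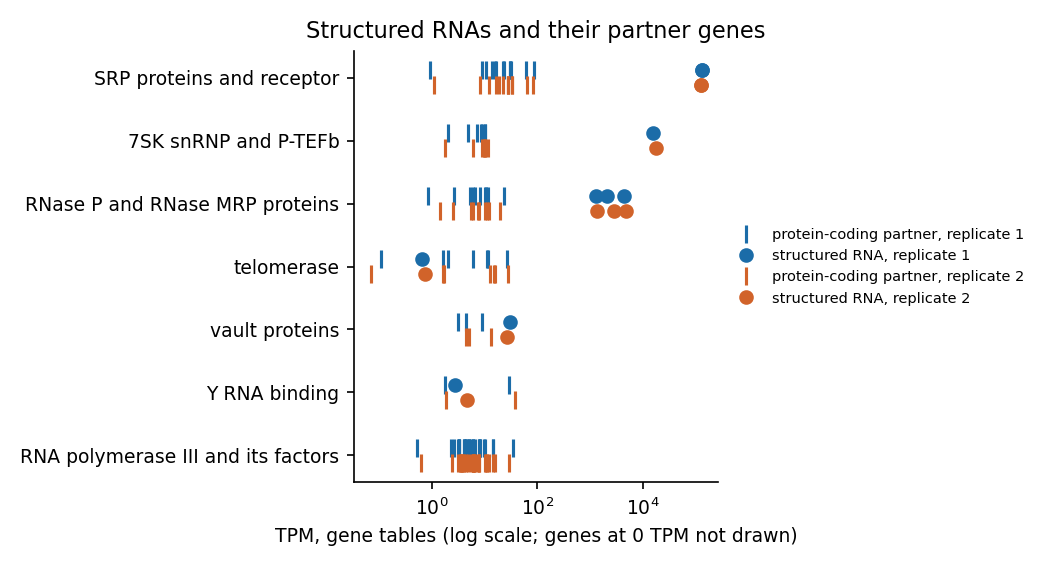
TPM of the structured RNAs (circles) and of the protein-coding genes of each list (ticks) in both libraries, on a log axis. 7SL, 7SK and the ribonuclease RNAs lie far to the right of their partners on this scale, the vault RNA lies just right of its partners (by CPM it lies below all 3), and Terc between Tert and the other telomerase genes.

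Few reads went to copies. Sharing at least 1 window of 31 bases defined 16 further genes for 7SL. They had 121 and 116 counts in all, 0.00832% and 0.00707% of the family. Of these genes, 8 are miRNA entries of 60 to 88 bases. Such entries are shorter than a read of 100 bases, so their 0 counts carry no information. For 7SK there were 25 further genes with 49.6 and 71.6 counts, 0.0488% and 0.0531%. The ribonuclease P family differed, as its 4 further genes had 1853 and 2096 counts, 6.31% and 5.78%. Nearly all of these were on Rprl3, which is 74.5% identical to Rpph1. The closest other 7SL entry, Rn7s6, was 83.2% identical to Rn7s1 and had 66.1 and 70.7 counts. Rny1 shared windows with 1 gene, which had 0 counts, and Terc, Rny3 and the vault RNA with none.

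The loci lie close to other genes. Ccdc107 overlaps Rmrp on the opposite strand and had 210 and 294 counts, far below Rmrp. Rps29, a ribosomal protein gene on the opposite strand 108 bases before Rn7s1, had 4134 and 5560 counts. Parp2 lies on the opposite strand 73 bases upstream of the 5′ end of Rpph1, with 184 and 243 counts. C920006O11Rik lies 280 bases upstream of Rn7sk, also on the opposite strand, with 9 in both. Farther off within 5 kb were Nemf beside Rn7s2 (713 and 901 counts), Ick beside Rn7sk (458 and 706) and Arhgef39 beside Rmrp (8 and 21). The miRNA entries Gm47287 and Gm47295 inside Rn7s1, and Gm47299 and Gm47305 inside Rn7s2, had 0 counts. At 70 to 80 bases they are shorter than a read of 100 bases, so their 0 counts carry no information. Within 5 kb Terc had only the pseudogene Gm21960, and Rny1 and Rny3 only Rpl31-ps7, both without counts. The vault RNA gene lies on chromosome 18, 36801866 to 36802008, plus strand, 2199 bases from Zmat2 (928 and 1195 counts). Whether counting used strand is not given in the sources used here.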

How the data were processed

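Per the labels, total RNA with ERCC spike-ins was sequenced from 2 libraries. The authors deposited, per the file headers, gene tables made from alignments to the transcriptome with expected counts, TPM, a posterior mean TPM, a posterior standard deviation of the count (a score of how firmly reads were assigned) and interval bounds of TPM (a signal, level not stated). They also deposited estimated counts and TPM made directly from the reads, summed here per gene and called the direct quantification. Their notes name mm10 and GENCODE M21. Which aligner and quantifiers were run is not given in the sources used here.

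Expected counts were rounded to whole numbers. Ratios used TMM in edgeR 4.0.16 (factors 0.957 and 1.05), a prior count of 0.5 and exact binomial (Clopper-Pearson) intervals. The ratio calculation was tested on simulated data. DESeq2 1.42.0 gave alternative size factors. A quasi-likelihood test in edgeR leaves no residual degrees of freedom with single libraries on each side, so genes were counted as past 1.5-fold and no p-value was computed. The libraries differed beyond sampling noise (chi-square per gene 25.4). Not used were 26248 rows named only by a number, with 1 and 0 counts, and spike-ins (285877 and 317175 counts) outside scaling. For 86 genes there was no direct value. RNAfold 2.7.2, Biopython 1.88, Python 3.11.15, pandas 2.3.3, numpy 2.4.6, scipy 1.17.1 and R 4.3.3 were used.

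The members, lists and tests were chosen with earlier results of these data known. Named are all members, the 3 partner genes of highest mean TPM in each list, Tert, partners past the fold, the 10 genes most alike, and overlapping or neighbouring genes within 5 kb. Other names, the length classes other than those of the members, the class of summed counts of at least 10000, the ratios to partners in other units, the median over 5 RNAs and the copies were chosen after values were seen. Ro60 and Srpra had no ID in M21, which uses Trove2 and Srpr. The sequence of 7SL is not reported here. Tried as alternatives were posterior mean TPM, the direct quantification, other scalings, filters and folds, and leaving out each library.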

Additional observations from a re-analysis of the deposited data

How the results depend on the processing

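The share of TPM held by the structured RNAs, 28.3%, was 27.6% with posterior mean TPM, 32.7% over genes not mitochondrially encoded, 22.9% with full length, 4.42% as CPM and 0.000431% in the direct quantification, and 28.1% to 28.5% without 1 library. No member was past the fold between libraries with 5 scalings, without the filter or at 2-fold. The direct quantification gave no such value, as no member had enough counts there. The 2 partner genes past the fold became 1 (Gar1) with total counts, with total counts without the members and with direct counts, and 0 at 2-fold. With spike-ins they were Gar1 and Pop1. Without 1 library, 7 to 7 members were lower in the direct quantification and 66 to 68 partners reached 1 TPM. Single-gene TPM moved beyond the SD of the libraries in 294 of 567 comparisons, and member ratios beyond their counting interval in 18 of 28. Leaving out 1 of 2 libraries moves a mean by less than that SD by construction, so those comparisons could not move. A change of scaling shifts all ratios alike, so passing the interval depended on the shift and on counting depth. In the direct quantification 58 genes moved higher and 13 lower. No paired analysis was possible because there is only 1 group. Counts limit Terc, the vault RNA and the Y RNAs, and 2 libraries limit every SD.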

Other observations

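Sec61g, a subunit of the translocon to which the signal recognition particle docks, moved the opposite way to the RNAs. It had 23.6 and 37.3 counts in the gene tables, at 0.95 and 1.13 TPM, and 539.9 and 707 counts in the direct quantification, at 70.0 and 86.6 TPM. The deposited posterior SD was 29.1% of its count in replicate 1. Among tested genes up to 350 bases, only mt-Nd3, with 348 bases, was not at least 10-fold lower in the direct quantification, at 2514 and 2348 counts from 16158 and 16774. Both genes were chosen after their values were seen, and the cause was not tested.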
